A study of Mus musculus with 22 samples.

Results

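The genes described here are 10 genes that mark vascular smooth muscle cells and pericytes (Acta2, Myl9, Myh11, Tagln, Cnn1, Notch3, Rgs5, Abcc9, Aoc3 and Eln), of 46882 genes in a table of normalized counts. They were chosen by their values in the same table, because Eln, Myl9, Acta2, Aoc3, Notch3 and Abcc9 were among the genes furthest above day 23 at day 46 in wild-type tumors, and the other 4 are known markers of the same cells. The difference between these days in wild-type tumors is therefore given as a description with no test.

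MC38, a colon carcinoma cell line from a chemically induced tumor of a C57BL/6 mouse, was injected under the skin of one flank in female mice aged 8 to 12 weeks, and tumors were removed on fixed days. Wild-type hosts (C57BL/6N) gave 3 tumors of day 23 and 3 of day 46. RAG1-/- hosts (B6.129S7-Rag1tm1Mom/J), which lack mature T and B cells but keep their other immune cells and their vessels, gave 3 tumors of day 13 and 3 of day 23, so that day 23 is the only day shared by both genotypes. MC38 cells before injection (2 samples) and normal mouse skin (2 samples, labelled day 23) completed the 16 libraries, which were made with QuantSeq, a 3′ mRNA method that reads each transcript near its end. Each tumor was split into pieces of which 1 was used for RNA, so every value is that of a piece of bulk tissue holding tumor and host cells, all of mouse origin. In such tissue fewer cells of a type and less RNA per cell cannot be told apart. Tumors were different animals, whereas the labels do not say whether the 2 MC38 samples were separate cultures, so that p-values there may measure technical spread.

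Vascular smooth muscle cells and pericytes, together called mural cells, wrap the endothelial tube of vessels. Smooth muscle cells of arteries carry a contractile apparatus of smooth muscle actin and myosin with the proteins that regulate them, while pericytes of capillaries contract less and are recognized by receptors, channels and signaling proteins. In tumors, some of these genes are also used by activated fibroblasts, Acta2, Myl9, Tagln and Eln among them, so that no single gene of the set marks 1 cell type. Many contractile genes are controlled by serum response factor with its coactivator myocardin, through a promoter element called the CArG box.

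RefSeq promoter sequences (250 bases before to 50 after the start, GRCm38.p6) were at hand for 6 of the 10 genes. These sequences are shown because the contractile genes Acta2 and Myl9 each held a pair of CArG boxes, whereas the promoters of Cnn1, Notch3, Rgs5 and Abcc9 held none in the same window. Both strands were searched, and the box reads the same way on either strand. An exact box was found in 1.63% of 32851 promoters, and a box that is exact or has 1 other base among its central letters in 9.98%. The capitals below mark the box, and the first 2 lines lie on the minus strand of chromosome 19 at chr19:34255438-34255467 and chr19:34255388-34255417.
Acta2, bases -94 to -65 from the start: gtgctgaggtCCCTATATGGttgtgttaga
Acta2, bases -44 to -15 from the start: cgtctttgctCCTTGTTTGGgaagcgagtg
Myl9, bases -250 to -51 from the start: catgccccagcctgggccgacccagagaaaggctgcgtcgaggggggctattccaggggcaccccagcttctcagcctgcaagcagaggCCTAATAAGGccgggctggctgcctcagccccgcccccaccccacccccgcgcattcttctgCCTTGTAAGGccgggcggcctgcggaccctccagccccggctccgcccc
Both Acta2 boxes have 1 other base, and both lie inside the first exon of a longer Acta2 transcript in GENCODE M21, in its 5′ untranslated part. The Myl9 stretch is chr2:156775214-156775413 on the plus strand and overlaps no annotated exon. Its first box is exact and its second has 1 other base. A match of letters is a description of the sequence, and these libraries did not measure binding.

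Libraries held 5589151 to 26134241 reads on genes, recovered from the table as whole multiples of its smallest value, and 3 reads, taken as the floor, stood at 1.33 to 6.38 normalized counts. Floors and counting intervals cover counting error only, since no molecular identifiers are described. Replicates of a group were distinct libraries (chi-square per degree of freedom 8.42 to 87.2). The lymphocyte transcripts followed the genotype labels: the immunoglobulin gene Igkc had 32 to 387 reads in wild-type and 0 to 4 in RAG1-/- tumors, and Cd8a had 6 to 108 and 0 to 1. Rag1 itself went the other way, with 0 to 1 reads in wild-type and 1 to 12 in RAG1-/- tumors. Whether its 3′ reads lie outside the altered part of the allele was not tested, so Rag1 does not check the genotype here.

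In wild-type tumors, all 10 genes had a higher mean at day 46 than at day 23, and for 8 of the 10 every day 46 tumor was above every day 23 tumor. Of 14746 genes whose mean over the tumors reached 5 normalized counts, 7.02% showed that separation in the same direction. This comparison chose the genes, so nothing is read from that count. On the scale log2(normalized count + 1), which understates changes of low genes, the differences ran from 1.08 for Cnn1 to 3.56 for Eln. The median over the 10 genes was 2.07, against 0.0049 over those 14746 genes.

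Acta2 encodes smooth muscle actin, the main actin of contractile vessel walls (chr19:34241090-34255590, minus strand, GRCm38). Its values were 259, 177 and 90.3 normalized counts in the 3 wild-type tumors taken on day 23, against 716, 1464 and 422 on day 46. The means were 176 ± 84.3 and 868 ± 537 (SD, n = 3 each), a difference of 2.24 on the log2 scale. All day 46 tumors lay above all day 23 tumors, and the spread at day 46 was wide. Up to 2.82% of the 22-base words in the last 500 bases of its transcripts also occur in other genes, Acta1 among them, so a small part of its reads could come from a related actin.

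Myl9, a regulatory light chain of smooth muscle myosin (chr2:156775420-156781658, plus strand), had 24.3, 29.8 and 9.51 normalized counts at day 23 and 111, 168 and 82.9 at day 46. Its difference of 2.53 on the log2 scale was the largest of the 5 contractile genes. Tagln, an actin-binding protein of smooth muscle also called transgelin (chr9:45929619-45936058, minus strand), had 28.0, 13.6 and 15.8 normalized counts at day 23 against 87.0, 113 and 36.4 at day 46. These groups were apart as well, with a difference of 1.91. For Tagln, 67.9% of the exonic bases lie opposite exons of Pcsk7 and Gm48529, and because the strand setting of the counting is not given in the sources used here, reads of these genes cannot be told apart from those of Tagln.

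The remaining contractile genes are the ones most limited to mature smooth muscle, and they were low. Myh11, the heavy chain of smooth muscle myosin (chr16:14194535-14291372, minus strand), had 4.43, 5.97 and 1.58 normalized counts at day 23 and 7.82, 32.9 and 4.39 at day 46. Only 1 day 46 tumor stood well above the floor, and the days overlapped. Cnn1, the actin-binding protein calponin (chr9:22099216-22109630, plus strand), had 0, 1.70 and 20.6 normalized counts at day 23 and 4.89, 18.8 and 3.77 at day 46. Its highest value among all tumors was in a day 23 tumor, and again the days overlapped.

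Notch3 is the Notch receptor of mural cells (chr17:32120820-32166852, minus strand). It had 14.0, 17.0 and 9.51 normalized counts at day 23 and 61.6, 154 and 34.5 at day 46, a difference of 2.31 on the log2 scale with no overlap. Rgs5, a regulator of G protein signaling and a widely used pericyte marker (chr1:169655501-169695813, plus strand), had 176, 211 and 47.5 against 335, 647 and 239. The lowest day 46 tumor was just above the highest day 23 tumor, and the difference was 1.61. Abcc9, the regulatory subunit of a potassium channel of pericytes and smooth muscle (chr6:142587862-142702315, minus strand), had 25.8, 31.5 and 26.9 normalized counts against 92.8, 138 and 50.9. Its 3 day 23 values were close together and all below day 46, with a difference of 1.60.

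Aoc3, an amine oxidase on the surface of smooth muscle cells, adipocytes and endothelium (chr11:101330605-101341938, plus strand), had 8.11, 4.26 and 15.8 normalized counts at day 23 and 55.7, 113 and 30.1 at day 46. The groups were apart by 2.66 on the log2 scale. Up to 5.22% of its end words occur in other genes. Eln encodes tropoelastin, the soluble precursor of elastic fibers (chr5:134702593-134747323, minus strand). Its values of 59.7, 39.2 and 46.0 normalized counts at day 23 stood against 254, 760.1 and 971 at day 46, an 11.8-fold difference on the log2(normalized count + 1) scale and the widest of the 10 genes.

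**Figure D1:**
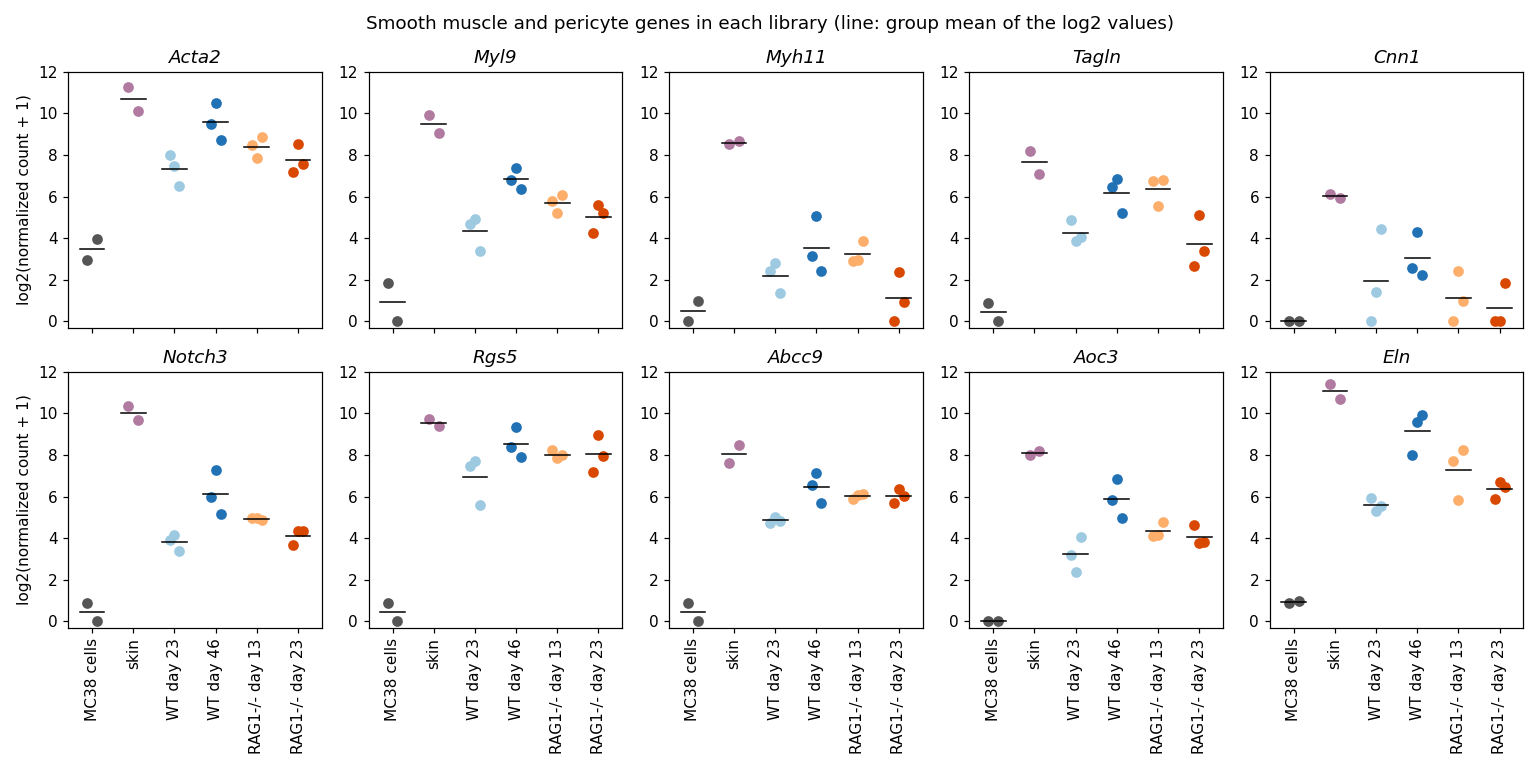
Level of each of the 10 genes as log2(normalized count + 1) in each library, by group (2 MC38, 2 skin and 3 tumors per tumor group), with each point 1 library and the line the group mean. Skin is the highest and MC38 the lowest group for every gene, and for 8 genes the 3 wild-type tumors of day 46 all lie above the 3 of day 23.

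A single tumor, wild-type day 46 replicate 2, held the highest value of all 12 tumors for 8 of the 10 genes, the exceptions being Eln (highest in day 46 replicate 3) and Cnn1 (highest in day 23 replicate 3). The mean of the centred log2 values of the 10 genes was 2.13 in that tumor, 1.02 and 0.56 in the other day 46 tumors, and -0.78, -0.79 and -0.98 in the day 23 tumors. Without it, the median difference between the days over the 10 genes was 1.65 in place of 2.07, and the differences ran from 0.45 for Cnn1 and 0.58 for Myh11 to 3.36 for Eln. On the linear scale Cnn1 then turned, since the other day 46 tumors (4.89 and 3.77 normalized counts) averaged less than the day 23 tumors (7.43).

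**Figure D2:**
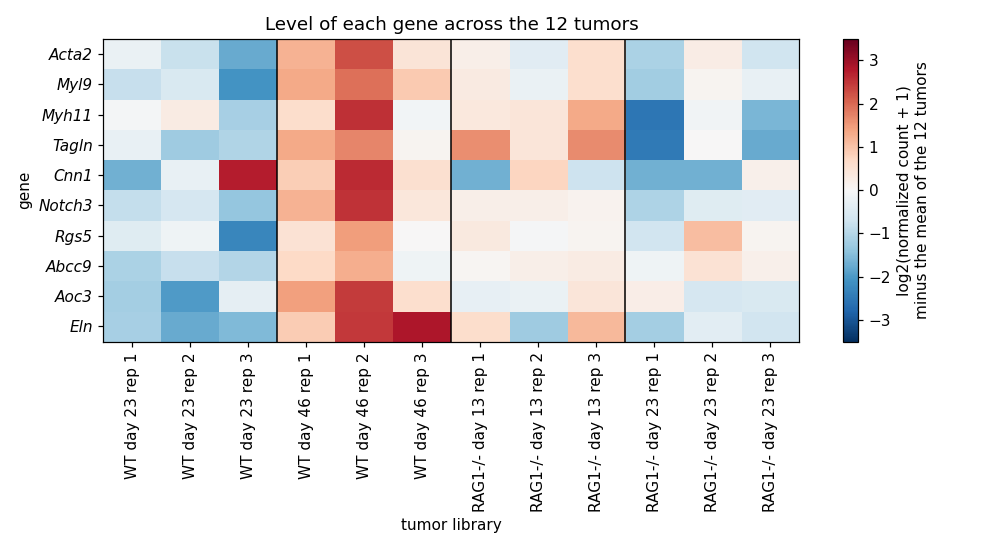
Level of each of the 10 genes in each of the 12 tumors, as log2(normalized count + 1) minus the mean of the gene over the 12 tumors; columns are tumors in the order of the 4 groups. The column of wild-type day 46 replicate 2 is the highest for 8 genes, and the wild-type day 23 columns are low for most genes, with Cnn1 in replicate 3 the exception.

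The days compared in RAG1-/- tumors share no tumor with the comparison that chose the genes, so this change could be tested. The limma fit is not fully separate from that choice, since its spread and filter came from all 12 tumors, the wild-type ones included. With only the RAG1-/- tumors in the fit, 17 genes were higher and 6 lower, and no member was among them. From day 13 to day 23 no member passed the threshold: with limma, 0 of 9 tested genes had an adjusted p under 0.05, and so did 0% of all 14746 genes in either direction. At an unadjusted p under 0.05 there were 2 members, Tagln and Myh11, both lower at day 23, beside 11.7% of all genes. edgeR called 0 genes, and DESeq2 called 89 higher and 117 lower, 1 of them a member (Tagln). The estimates of 8 of the 9 members were below 0, with a median of -0.67 against -0.01 over all genes. Cnn1 was not tested with a fit across genes, since its mean was under 5.

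Tagln had 106, 45.6 and 109 normalized counts in RAG1-/- tumors of day 13 and 5.24, 34.0 and 9.28 at day 23, so that the days did not overlap. The difference was -2.64 on the log2 scale (SE 0.61, 95% interval -3.93 to -1.35). It had an adjusted p of 0.167 with limma and 0.00753 with DESeq2, and over all alternatives the adjusted p ran from 0.00753 to 0.575. The exact two-sided permutation test gave p = 0.1, the smallest value that 3 against 3 tumors allow.

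Myh11 had 6.42, 6.67 and 13.3 normalized counts at day 13 and 0, 4.26 and 0.884 at day 23, values near the floor, with a difference of -2.12 (SE 0.84, adjusted p = 0.344 with limma). Notch3 had 30.0, 30.0 and 28.6 at day 13 and 11.8, 19.2 and 19.4 at day 23, a difference of -0.81 (SE 0.49, adjusted p = 0.550 with limma). Its 95% interval, -1.86 to 0.24, included 0. Tagln, Myh11 and Notch3 were thus the 3 members of 10 whose day 23 tumors all lay below all day 13 tumors, and 9.92% of genes did so.

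Levels of skeletal muscle genes were also lower at day 23, with 0 of 12 past the threshold in limma and 12 at an unadjusted p under 0.05. The summed level of the 12 skeletal muscle genes was 446 to 12342 normalized counts at day 13 and 78.7 to 124 at day 23, and in 10 of the 12 genes every day 23 tumor was lower. Acta1, the actin of skeletal muscle, averaged 3164 ± 2625 normalized counts on day 13, against 25.6 ± 13.4 on day 23 (SD, n = 3 each). Des, which both kinds of muscle use, had 704 ± 624 and 14.1 ± 12.2. The part of this tissue in the Tagln and Myh11 values was not tested. Over the day 13 tumors the skeletal muscle sums were 11424, 446 and 12342 normalized counts. In the same order, Tagln stood at 106, 45.6 and 109 and Myh11 at 6.42, 6.67 and 13.3. Sums of endothelial genes (1800, 1072 and 2215) and fibroblast genes (33595, 18057 and 31132) were also lowest in replicate 2, as were those of adipocyte and keratinocyte genes. Leukocyte sums (2999, 3948 and 4645) were not.

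For the other members tested, as for Notch3, the intervals of the difference in RAG1-/- tumors included 0. Acta2 had 356, 235 and 459 normalized counts at day 13 and 143, 368 and 188 at day 23, a difference of -0.65 (95% interval -1.62 to 0.32). Myl9 had 54.6, 36.7 and 65.7 against 18.3, 46.8 and 36.2, a difference of -0.67 (-1.67 to 0.32). Eln had 208, 56.7 and 299 against 58.9, 104 and 85.7, a difference of -0.91 (-2.05 to 0.23). In Acta2, Myl9 and Eln the days overlapped.

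Rgs5, Abcc9 and Aoc3 had the estimates nearest 0 there. Rgs5 had 298, 228 and 251 normalized counts at day 13 and 147, 496 and 250.1 at day 23, a difference of 0.03 (-1.05 to 1.11) whose sign turned with either rescaling. Abcc9 had 58.8, 65.6 and 69.5 against 51.1, 80.9 and 63.6, a difference of -0.01 (-0.77 to 0.75). Aoc3 had 16.05, 16.7 and 26.7 against 23.6, 12.8 and 13.3, a difference of -0.26 (-1.45 to 0.92).

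**Figure D3:**
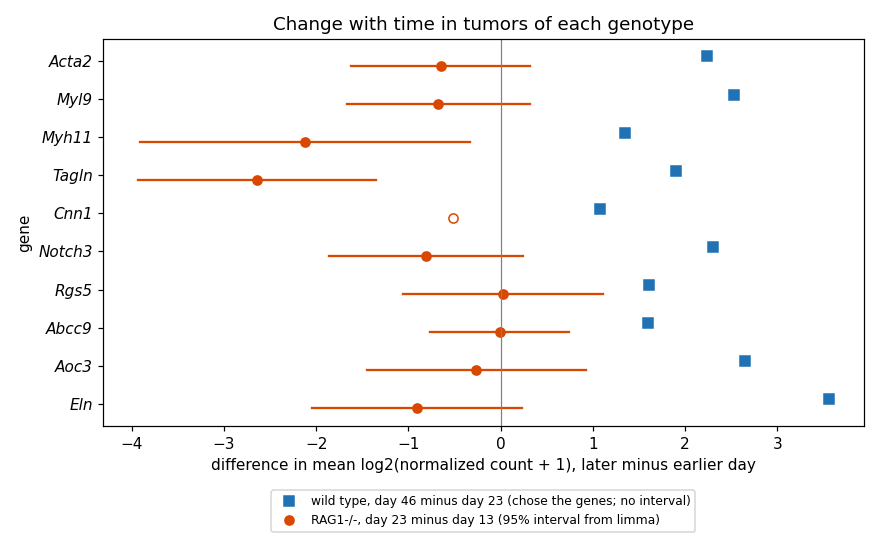
Difference in mean log2(normalized count + 1) between the later and the earlier day for each of the 10 genes, in wild-type tumors (squares, no interval, since this difference chose the genes) and in RAG1-/- tumors (circles, with 95% intervals from limma; Cnn1 is open because it was not tested). All squares lie between 1.08 and 3.56, and the circles lie between -2.64 and 0.03.

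The days compared were not the same in both genotypes (day 23 and day 46 against day 13 and day 23), so the difference between these 2 changes was not tested. At day 23, the day both share, the wild-type values are those of the tumors that chose the genes and are described only. The median difference of wild-type from RAG1-/- tumors was -0.55 on the log2 scale over the 10 genes. Abcc9 alone had every wild-type tumor lower, 25.8 to 31.5 against 51.1 to 80.9 normalized counts, as had 7.62% of genes.

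Cnn1 is left out of the shares that follow, since its tumor mean was under 5 normalized counts. Against the RAG1-/- tumors of day 13, the wild-type tumors of day 23 were all lower for 7 of the other 9 genes, beside 8.98% of genes. These were Myl9, Myh11, Tagln, Notch3, Rgs5, Abcc9 and Aoc3. Myh11 was apart only by 5.97 against 6.42 normalized counts, which were 7 and 6 reads, so its order rests on the scaling. The wild-type tumors of day 46 were all above the RAG1-/- tumors of day 23 for 7 of those 9 genes, all but Rgs5 and Abcc9, beside 7.08% of genes. Myh11 was apart only by 4.39 against 4.26 normalized counts, and Cnn1, outside the 9 genes, by 3.77 against 2.65. These values lie under the floor of RAG1-/- day 23 replicate 2 (6.38), so neither separation is read. Against the RAG1-/- tumors of day 13, the wild-type tumors of day 46 were all higher for Myl9, Notch3 and Aoc3, 3 of the same 9 genes, beside 10.3% of genes. Tagln was the 1 gene whose mean was higher in RAG1-/- tumors of day 13 (86.7 ± 35.6) than in wild-type tumors of day 46 (79.0 ± 39.2, SD, n = 3 each), well within their spread. These comparisons share tumors with the choice of the genes and carry no test.

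Averaged over both days, the wild-type and RAG1-/- tumors are also described without a test of the members, because the wild-type mean includes the tumors that chose the genes and the day 46 values, which spread most, weigh on it. The estimate was largest for Cnn1, at 1.62 on the log2 scale, a gene with 0 to 20.6 normalized counts in tumors. It was 0.71 for Myh11 and 0.58 for Eln. Acta2 differed by 0.38 and Notch3 by 0.45. Rgs5 and Abcc9 had estimates below 0, -0.29 and -0.37. Neither a difference between the genotypes nor its absence is read from these estimates.

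Genes of related lists were tested in the same comparison of genotypes, where 0.570% of all genes passed on the wild-type side and 0.142% on the RAG1-/- side in limma and 11.4% had an unadjusted p under 0.05. The wild-type tumors were of days 23 and 46 and the RAG1-/- tumors of days 13 and 23. Genotype and tumor age therefore cannot be told apart in this comparison. Of 3 lists, 1 gene each passed, all higher in wild-type tumors. Mylk, the kinase that phosphorylates myosin light chains such as Myl9, averaged 130 ± 64.9 normalized counts on day 23 and 262 ± 43.1 on day 46 in the wild type, beside 104 ± 35.7 on day 13 and 58.4 ± 21.9 on day 23 in RAG1-/- tumors (SD, n = 3 each). The difference was 1.24 on the log2 scale (adjusted p = 0.0461 with limma). At day 23 alone the genotypes overlapped for Mylk, at 74.2 to 201 normalized counts in wild-type and 34.0 to 76.6 in RAG1-/- tumors. Cspg4, the pericyte proteoglycan NG2, differed by 0.91 (adjusted p = 0.00964 with limma), but MC38 cells also expressed it, at 342 ± 13.0 normalized counts (SD, n = 2). At day 23 alone its genotypes did not overlap (319 to 532 in wild-type against 196 to 295 in RAG1-/- tumors). Fbln2, an elastic fiber protein, differed by 1.36 (adjusted p = 0.0124 with limma) and had 0 reads in MC38 cells. Its genotypes were also apart at day 23 (355 to 986 against 200 to 347). The counts were 1 of 20 contractile genes, 1 of 22 pericyte genes, 1 of 21 elastic fiber genes and 0 of 17 Notch pathway genes, with list medians of 0.15, -0.04, 0.06 and 0.04 against 0.01 over all genes.

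MC38 cells had almost none of these transcripts. Over both MC38 samples Acta2 had 23 reads, Myl9 had 3 and Eln had 2, while Myh11, Tagln, Notch3, Rgs5 and Abcc9 had 1 each and Cnn1 and Aoc3 had 0. In the 12 tumors, 8 of the 9 members tested were higher than in MC38 cells with limma (adjusted p under 0.05), against 18.2% of all 14708 genes. These tumors include the 6 that chose the genes, and all members tested but Acta2 reached the filter only through the tumors. Those genes could be called only higher or not at all. The member median was 4.68 on the log2 scale, against 0.05 over all genes.

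As a ratio of reads scaled for depth, tumors stood above MC38 cells by 41.5-fold for Acta2 (95% counting interval 27.6 to 65.4), 45.0-fold for Myl9 (15.4 to 219) and 316-fold for Eln (87.6 to 2614). For genes with 1 read in MC38 cells the intervals were very wide, as for Rgs5 (620.3-fold, 111 to 24506) and Notch3 (86.7-fold, 15.5 to 3432). Aoc3, with 0 reads in MC38 cells, was at least 10.2-fold higher in tumors, and Cnn1 at least 1.75-fold higher, both against a floor of 3 reads in each of the 2 MC38 samples. On the log2 scale Rgs5 had the largest difference, 7.44 (SE 0.48, adjusted p = 8.94e-10 with limma). Myh11 had the smallest, 2.03 (SE 0.79), and was the member that did not pass (adjusted p = 0.0649 with limma), though it did in 4 of 23 alternatives (adjusted p 0.0370 to 0.404).

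Counts for the related lists in this comparison stand beside 18.2% of all genes higher and an all-gene median of 0.05. Genes at 0 in both MC38 samples reached the filter only through the tumors, so they could be called only higher or not at all. Of the 24 pericyte genes, 15 and 17 stood at 0 in the 2 MC38 samples, so little is read from the count of that list. Of pericyte genes 18 of 22 tested passed in limma and 0 were lower, with a median of 3.78 on the log2 scale. Mcam, an adhesion molecule of mural and endothelial cells, differed by 6.85 and Kcnj8, the pore partner of Abcc9 in its channel, by 5.64, and both had 0 reads in MC38 cells. Elastic fiber genes passed in 13 of 21 (median 2.17) and Notch pathway genes in 10 of 17 (median 0.92), among them Dll4, a Notch ligand of endothelium, at 5.52. Contractile genes beyond the 5 members passed in 11 of 19, with a median of only 0.63. Their summed level was already 18990 to 19732 normalized counts in MC38 cells, beside 24300 to 31201 in tumors. The largest parts of that sum in MC38 cells were Tpm1, Cald1 and Flna, with means of 5450, 5451 and 4074. Des, Actg2, Synpo2 and Lmod1 averaged only 3.97, 1.83, 0.428 and 0.428 there, whereas Mylk and Smtn averaged 32.2 and 262.

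Skin, which holds vessels as well as the smooth muscle of hair follicles, had the highest group mean of every member. The tumors were lower than skin for 10 of the 10 genes in limma (adjusted p under 0.05), against 36.3% of 16259 genes, with a member median of -3.84 on the log2 scale and -0.19 over all genes. The tumors here include the wild-type ones that chose the genes. Cnn1 averaged 4.82 normalized counts in tumors and 64.8 in skin, so it reached the filter only through skin. Myh11 differed most, at -6.07 (SE 0.68, adjusted p = 3.08e-06 with limma), with 367 and 405 normalized counts in skin and 0 to 32.9 in tumors. Notch3 followed at -5.28 (SE 0.44), with 1315 and 834 in skin against 9.51 to 154.

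The smallest differences from skin were those of Rgs5 and Abcc9. Rgs5 had 837 and 681 normalized counts in skin and 47.5 to 647 in tumors, a difference of -1.68 (SE 0.49, adjusted p = 0.00857 with limma). It no longer passed without either skin library (adjusted p = 0.117 without replicate 1 and 0.0694 without replicate 2, limma). Abcc9 differed by -2.20 (SE 0.34, adjusted p = 7.21e-05 with limma). Acta2, with 2466 and 1115 in skin, differed by -2.43 (SE 0.46), and Tagln, with 292 and 136, by -2.52 (SE 0.59), a call that was lost without skin replicate 1 (adjusted p = 0.0771 with limma). The most abundant Acta2 tumor (1464) lay between the skin samples, and it was the 1 gene for which a tumor group overlapped skin.

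Skin also held far more skeletal muscle RNA than any tumor, 132113 to 202997 normalized counts over the 12 genes, and the part of that tissue in the skin values of genes such as Acta2 was not tested. Des had 3956 ± 2542 in skin (SD, n = 2). Between MC38 cells and skin all 10 genes were lower in MC38 cells with limma, from -6.04 for Cnn1 to -10.13 for Eln, beside 41.2% of 16780 genes. All but Acta2 averaged at most 1.28 normalized counts in MC38 cells and reached the filter only through skin. Those genes could be called only lower or not at all, so little is read from their count. Here the scaling matters for all genes: after rescaling to the same total, the median of all genes moved by 0.43, and the share of called genes that were higher in MC38 cells moved from 33.5% to 46.8%. The tumors against skin moved by 0.41, from 40.2% to 57.3% higher. Tumors against MC38 cells moved by 0.13 with the upper quartile, from 65.9% to 81.2% higher. All member calls of these 3 comparisons were the same under both rescalings.

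**Figure D4:**
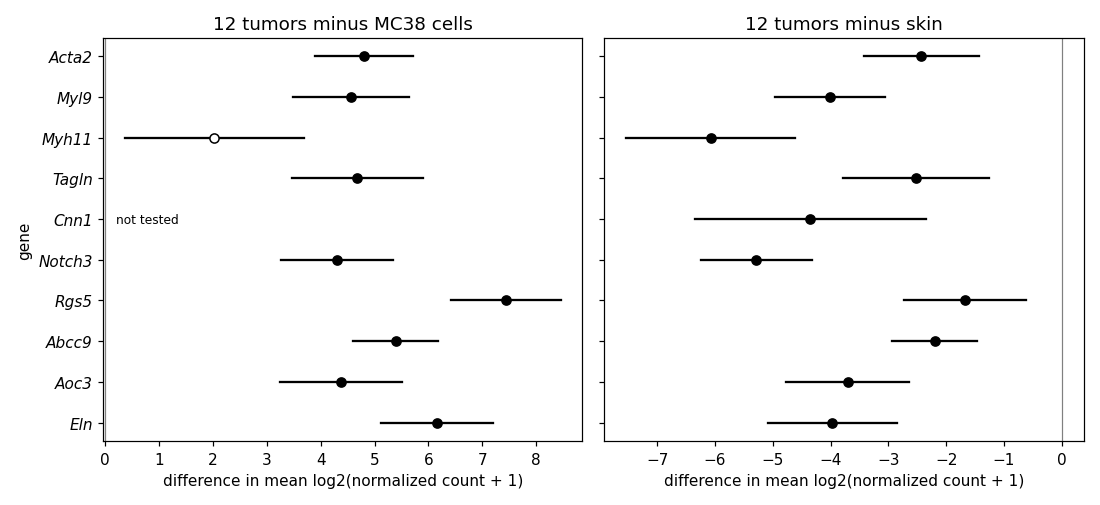
Difference in mean log2(normalized count + 1) of the 12 tumors from MC38 cells (left) and from skin (right) for each of the 10 genes, with 95% intervals from limma; open circles did not pass an adjusted p of 0.05. The differences from MC38 cells lie between 2.03 and 7.44, those from skin between -6.07 and -1.68.

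The order of the groups was much alike among the members, but the difference between the wild-type days chose the genes. Nothing is therefore read from the places of the wild-type tumor groups in that order. Skin came first for 10 of 10 genes and MC38 cells last for 10. Wild-type tumors of day 46 came second for 9 genes, all but Tagln. Wild-type tumors of day 23 were the lowest tumor group for 7 genes (Acta2, Myl9, Notch3, Rgs5, Abcc9, Aoc3 and Eln), whereas for Myh11, Tagln and Cnn1 the RAG1-/- tumors of day 23 were lowest. Neighbouring tumor groups mostly overlapped. For Acta2, Cnn1 and Eln each tumor group overlapped the next in order, while for Notch3, Myl9 and Aoc3 the wild-type tumors of day 46 lay wholly above the RAG1-/- tumors of day 13. Notch3 varied least in RAG1-/- tumors of day 13 (29.5 ± 0.813) and most among tumors in wild-type day 46 (83.5 ± 62.9), with 13.5 ± 3.79 in wild-type and 16.8 ± 4.34 in RAG1-/- tumors of day 23 (SD, n = 3 each).

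Lists of other genes of the same pathways and of other cell types, chosen with earlier results of these data known, are set beside the members here. At day 46, every wild-type tumor was above those of day 23 in 6 of 20 contractile genes (median difference 0.27 on the log2 scale), 5 of 22 pericyte genes (0.75), 8 of 21 elastic fiber genes (0.67) and 0 of 17 Notch pathway genes (0.14), beside the 7.02% of all genes. Actg2, the enteric smooth muscle actin, averaged 11.6 ± 2.07 normalized counts on day 23, against 65.4 ± 43.9 on day 46 (SD, n = 3 each). Myocd, which encodes myocardin, reached at most 1.26 normalized counts in a tumor, under the floor.

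Genes of other cell types were compared between the same days. Of 12 endothelial genes, 6 had every day 46 tumor above day 23, again beside 7.02% of all genes, and their summed level was 1047 to 1076 normalized counts at day 23 and 1359 to 2428 at day 46, with the highest in replicate 2. Kdr, the main receptor for vascular endothelial growth factor, had 88.0 ± 28.7 and 205 ± 73.6. Of 11 fibroblast genes 3 did so and 4 had a lower estimate at day 46, with sums of 21493 to 35091 and 30408 to 54604 that overlapped. Skeletal muscle sums were 88.7 to 1117 and 88.0 to 1919, with replicates 2 and 3 of day 46 high, and adipocyte sums were 204 to 304 and 342 to 679. Keratinocyte sums were 395 to 2177 at day 23 and 242 to 392 at day 46, and leukocyte sums 4102 to 5617 and 3412 to 4748. The part of these cells in the levels of the 10 genes was not tested.

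**Figure D5:**
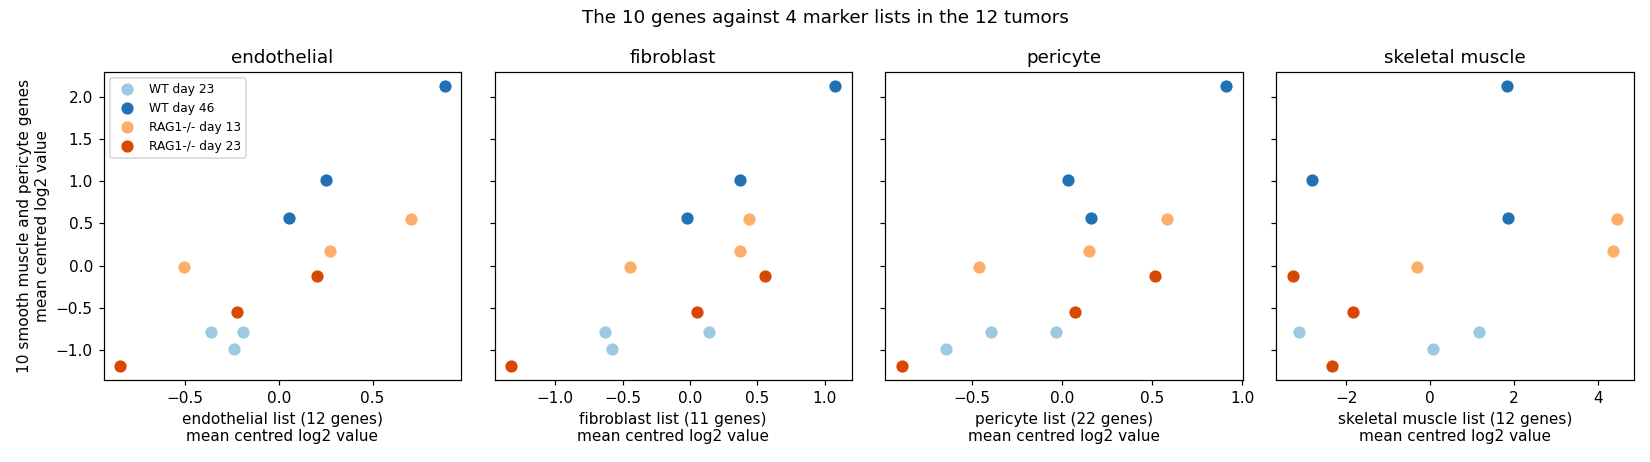
Mean centred log2 value of the 10 genes (vertical axis) against that of the endothelial (12 genes), fibroblast (11), pericyte (22) and skeletal muscle (12) lists (horizontal axes), with each point 1 of the 12 tumors. The wild-type day 46 replicate 2 tumor (2.13 on the vertical axis) is also the highest on the endothelial, fibroblast and pericyte axes.

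How closely each member followed the mean of the other 9 over the 12 tumors is given as a description, since all points share the choice of genes and the day 46 tumors. Pearson's r was 0.96 for Notch3, 0.94 for Acta2 and 0.92 for Myl9, between 0.67 (Rgs5) and 0.80 (Eln) for 6 others, and 0.26 for Cnn1. Over the 6 RAG1-/- tumors alone, which did not choose the genes, r was 0.97 for Myh11, 0.94 for Myl9, 0.92 for Tagln, 0.90 for Acta2 and 0.89 for Notch3. It was lower for Eln (0.68), Abcc9 (0.56) and Rgs5 (0.45) and near 0 for Aoc3 (-0.01) and Cnn1 (-0.03). The 5 highest of these values belonged to Notch3 and the 4 contractile genes other than Cnn1, which lay at 0 to 4.45 normalized counts there.

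Among 12061 genes whose tumor mean reached 20 normalized counts, those whose levels over the 12 tumors were most like the mean of the 10 genes were Robo4 (r = 0.92), Lrrc15 (0.91), Rnf150 (0.91), Col1a1 (0.89), Col1a2 (0.89), Mmp23 (0.89), Hoxc8 (0.88) and Adam12 (0.88). Robo4 is a receptor of endothelial cells, Lrrc15 a membrane protein of activated fibroblasts, and Col1a1 and Col1a2 the chains of type I collagen. Their r over the RAG1-/- tumors alone was 0.71 to 0.90. Over those 6 tumors other genes came first, led by Polr2h (0.99), Rps6-ps2 (0.99) and Rps9 (0.99), none of them among the first 8 over all 12.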

How the data were processed

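Bulk RNA of 12 tumors, 2 MC38 samples and 2 skin samples was read as QuantSeq 3′ libraries on an Ion Proton. According to the methods and the labels, the authors trimmed reads with cutadapt and Trimmomatic, aligned them to mm10 with STAR and then Bowtie2, kept primary alignments, removed ribosomal reads, counted reads per gene with HTSeq and scaled the counts with DESeq2. The signal the authors deposited is the scaled count of each gene, and 100% of its values were whole multiples of 1 read (tolerance 0.01), from which reads were recovered. The annotation, strand setting and versions are not given in the sources used here. A primary alignment can place a read on the wrong copy of a repeated sequence. A second table with 6 columns that match no label was not used.

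The members and lists were chosen with earlier results of these data known. All 10 members are named. Up to 4 genes per list and comparison with the smallest adjusted p under 0.05, the genes most like the members and paralogs could also be named, and Des and Myocd were picked from the lists after their values were seen. limma 3.58.1 (R 4.3.3, mean-dependent trend, two-sided) was run on log2(normalized count + 1) for genes whose mean over the libraries in the fit reached 5, with Benjamini-Hochberg adjustment over all genes and a threshold of 0.05. Tumor comparisons used all 12 tumors as 4 groups. The planned test of the members between genotypes is given as a description, since its wild-type tumors chose them. Single genes were also compared with exact permutation tests. edgeR 4.0.16 and DESeq2 1.42.0 on recovered reads were alternatives, as were pseudocounts of 0.1 and 5, no filter, a mean of at least 20, 2 rescalings, no trend, other groups in the fit, the replicate number as a block and each library left out. The tests were checked on simulated reads. Positions come from GENCODE M21 (GRCm38, the same build as mm10), and promoters from RefSeq (GRCm38.p6). Same-numbered tumors are different mice.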

Additional observations from a re-analysis of the deposited data

How the results depend on the processing

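The calls of all 10 members between MC38 cells and skin and between tumors and skin, and of 8 between tumors and MC38 cells, held with each pseudocount, filter, rescaling and tool that gave a value (Cnn1 in the tumors against skin had none with a mean of at least 20). Leaving out 1 library gave 8 to 9 members called in tumors against MC38 cells, with 1678 to 2853 genes higher and 414 to 1585 lower, the fewest without MC38 replicate 2 (1716 and 484 without replicate 1). Against skin it gave 8 to 10 members (8 without skin replicate 1), 3124 to 4036 genes higher and 4461 to 5988 lower, and for MC38 cells against skin 9 to 10 members, 1827 to 2338 higher and 4031 to 5542 lower, where Myl9 was lost without skin replicate 1 or 2 (adjusted p = 0.0708 and 0.0634, limma). For RAG1-/- tumors of day 23 against day 13 it gave 0 to 0 members, 0 to 3 genes higher and 0 to 35 lower, the most without day 13 replicate 2. For wild-type against RAG1-/- tumors, where the members were not tested, it gave 57 to 140 genes higher and 7 to 34 lower.

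With DESeq2, RAG1-/- tumors of day 23 against day 13 had 1 member called, 89 genes higher and 117 lower. With only the 6 RAG1-/- tumors in the limma fit, 17 genes were higher and 6 lower, and no member was among them. Wild-type against RAG1-/- tumors gave 195 higher and 90 lower with DESeq2, 41 and 7 with limma without trend, 9 lower with no filter and 12 lower with the upper quartile. Tumors against MC38 cells had 687 genes lower with the upper quartile. The sign turned for members with estimates near 0. Over time in RAG1-/- tumors, Rgs5 was -0.035 with the upper quartile and -0.086 with the total, and with 1 library left out it ran from -0.43 (without day 23 replicate 2) to 0.45, and Abcc9 from -0.18 to 0.15 (without day 23 replicate 1). Between genotypes, Rgs5 ran from -0.50 to 0.042 (without wild-type day 23 replicate 3) and Tagln from -0.078 (without RAG1-/- day 23 replicate 1) to 0.54. The cause was not tested. The median over the 10 genes was 1.65 to 2.52 for wild-type day 46 against day 23 and -0.80 to -0.15 for wild-type against RAG1-/- tumors of day 23 with 1 library left out, alternatives chosen after seeing the data.

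Replicate numbers did not pair the libraries (correlation of same-numbered deviations -0.05, -0.15 and 0.09 in RAG1-/- tumors and -0.12, -0.02 and -0.02 in wild-type tumors, and 0.01 for MC38 cells and skin). With the replicate block, tumors against MC38 cells had 9 members called (Myh11, adjusted p = 0.0425, limma), against skin 10, and MC38 cells against skin 10. Over time in RAG1-/- tumors it gave 0 members, 0 genes higher and 0 lower. Between genotypes it gave 89 genes higher and 20 lower. Cnn1, with 0 to 28 reads in a tumor, had a mean under 5 normalized counts among tumors.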
